A study of Homo sapiens with 96 samples.

Results

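The S100 calcium-binding proteins were described through 9 genes, S100A4, S100A6, S100A8, S100A9, S100A10, S100A11, S100A12, S100P and S100Z. Their rows were taken by gene symbol from a count table of 60552 gene rows. The choice of members was made with earlier results of these data known. Transcripts were measured by stranded total RNA sequencing in 6 established human acute myeloid leukaemia (AML) lines, namely THP1, OCIAML3, MV411, MOLM13, Kasumi1 and HL60. Each line received DMSO at 0.1% (the vehicle), GSK2879552 at 1 µM (labelled 552A, an inhibitor of the histone demethylase LSD1), all-trans retinoic acid (ATRA, a ligand of the retinoic acid receptors) at 100 nM, or both agents together (Combo). RNA was taken after 2 or 4 days, with 2 libraries for each of the 48 combinations, 96 in all. That 552A stands for GSK2879552 was inferred from the protocol, in which no other arm was left unnamed. As background on the models, fusions of KMT2A are present in THP1, MV411 and MOLM13, a RUNX1-RUNX1T1 fusion in Kasumi1, and NPM1 is mutated in OCIAML3. Each of these models is a single leukaemia grown as a line.

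S100 proteins are small EF-hand proteins that change shape on binding calcium and then engage partner proteins. S100A8 and S100A9 pair to form calprotectin, an abundant cytosolic protein of neutrophils and monocytes that is released in inflammation. S100A12, or calgranulin C, has a similar distribution, and the genes of these calgranulins lie side by side on chromosome 1. S100A10 binds annexin A2 at the cell membrane, S100A4 binds non-muscle myosin, S100A6 binds the calcyclin-binding protein, and S100A11 binds annexin A1. S100P is a calcium sensor best known from placenta and carcinomas, and S100Z is a family member that is rarely described in myeloid cells.

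In GRCh38 with GENCODE 29 coordinates, 7 members lie on chromosome 1. S100A10 spans chr1:151982915-151994390 and S100A11 spans chr1:152032506-152047907. The calgranulins follow, with S100A9 at chr1:153357854-153361027 on the plus strand, and with S100A12 at chr1:153373706-153375649 and S100A8 at chr1:153390032-153391188 on the minus strand. S100A6 at chr1:153534599-153536244 and S100A4 at chr1:153543613-153550136 come next. S100P is at chr4:6693069-6697170 and S100Z at chr5:76850001-76921650. S100A4 overlaps S100A3 on the same strand, but S100A3 reached no more than 1.43 CPM (normalised read counts per 1e6 reads) in any library, against up to 756 CPM for S100A4. The antisense genes that overlap S100A11 and S100A6 reached no more than 0.227 and 0.777 CPM.

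The promoters of the calgranulins are shown because these genes moved together in the results that follow. Each sequence holds the 250 bases before the gene's RefSeq start, written 5′ to 3′ on the gene's own strand (GRCh38.p14). The RefSeq promoter table matched all 9 members. For S100A12 the RefSeq start, chr1:153375621, lies inside the GENCODE span given above. Its window therefore overlaps that span in part, and distances are counted from the RefSeq start. The table lists 3 starts for S100A8, and the most upstream is shown. Capitals mark matches on either strand to the letters TTGCNNAA (a C/EBP site), GAGGAA (a PU.1 site), AGGTCA (a half-site of the retinoid receptors) or AATCAC (a GFI1 site). The windows are chr1:153391189-153391438 (minus strand) for S100A8, chr1:153357604-153357853 (plus strand) for S100A9 and chr1:153375622-153375871 (minus strand) for S100A12.
S100A8: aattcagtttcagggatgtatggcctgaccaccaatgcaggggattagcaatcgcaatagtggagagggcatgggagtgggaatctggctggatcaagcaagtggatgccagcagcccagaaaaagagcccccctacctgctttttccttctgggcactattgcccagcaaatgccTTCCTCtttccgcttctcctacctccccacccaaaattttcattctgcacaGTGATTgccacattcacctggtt
S100A9: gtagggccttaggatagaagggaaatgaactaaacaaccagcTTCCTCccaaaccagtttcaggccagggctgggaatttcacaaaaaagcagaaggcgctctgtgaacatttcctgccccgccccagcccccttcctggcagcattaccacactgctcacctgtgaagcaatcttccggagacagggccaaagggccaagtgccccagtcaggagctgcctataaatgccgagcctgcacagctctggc
S100A12: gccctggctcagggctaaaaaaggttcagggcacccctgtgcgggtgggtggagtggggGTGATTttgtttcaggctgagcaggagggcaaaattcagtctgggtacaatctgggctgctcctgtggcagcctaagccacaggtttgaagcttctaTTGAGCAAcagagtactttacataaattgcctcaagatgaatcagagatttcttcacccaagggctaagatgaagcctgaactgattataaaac
The S100A8 window held the PU.1 letters 74 bases and the GFI1 letters 23 bases before the start. The S100A9 window held the PU.1 letters at 208 bases, and the S100A12 window held the C/EBP letters at 94 bases and the GFI1 letters at 191 bases. None of these 3 windows held the retinoid half-site letters, and no match overlapped another. Over 35116 promoter windows of the same length, the C/EBP letters occurred in 9.05%, the PU.1 letters in 23.6%, the half-site letters in 12.1% and the GFI1 letters in 9.02%. A match describes the letters only, and binding was not measured.

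Total counts per library in units of 1e6 reads ran from 12.82 to 40.95 (median 22.88). The myeloid markers PTPRC, CD33 and SPI1 were at or above 109, 22.4 and 8.78 CPM in every library, and MPO ranged from 0.237 to 12270 CPM. The erythroid marker HBB did not exceed 0.122 CPM. The B-cell marker MS4A1 did not exceed 0.0727 CPM, and the stromal markers COL1A1 and PDGFRB summed to at most 2.74 CPM. The T-cell markers CD3E and CD2 summed to at most 0.86 CPM except in HL60 with ATRA or Combo, where they reached 6.93 CPM. The epithelial markers EPCAM and CDH1 summed to between 90.7 and 148.2 CPM in Kasumi1 and to at most 1.45 CPM in the other lines. In each line other than HL60, the library with the lowest slope of log2 CPM on GC content was treated as having a GC trend (slopes from -0.99 to -0.49 per 10% GC, relative to the line's mean), namely replicate 2 of THP1 and of OCIAML3 with 552A at day 2, replicate 1 of MOLM13 with 552A at day 4, and with Combo at day 4 replicate 1 of Kasumi1 and replicate 2 of MV411. Slopes of the other libraries ran from -0.58 to 0.40. Among those, the day 4 replicate 2 libraries of MV411 with DMSO (-0.58), OCIAML3 with Combo (-0.54) and HL60 with ATRA (-0.52) were lower than the MOLM13 library (-0.49). The members' exons have GC contents between 37.9 and 60.2%, the highest being that of S100A6. Whether replicates came from different cultures is not in the labels, and p-values within a line therefore rest on how far the 2 libraries of a group vary, possibly for technical reasons alone. In bulk RNA, fewer cells expressing a gene and less RNA per cell cannot be told apart.

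The RPKM scale divides CPM by exon length in kb and lets levels of different genes be compared. On this scale, S100A4 had the highest mean level of the members at day 4 in all untreated lines but OCIAML3. By mean CPM, S100P (114.3 CPM) was above S100A4 (97.2 CPM) in untreated HL60 at day 4. THP1 at day 4 was led by S100A4 (277 RPKM), S100A6 (220.2 RPKM) and S100A9 (143.5 RPKM). HL60 was led by S100A4 (94.8 RPKM) and S100P (89.3 RPKM), MV411 by S100A4 (115.9 RPKM), MOLM13 by S100A4 (57.0 RPKM) and S100A6 (55.5 RPKM), OCIAML3 by S100A11 (96.2 RPKM) and S100A6 (90.9 RPKM), and Kasumi1 by S100A4 (32.8 RPKM). At day 2, HL60 was led by S100P (130.7 RPKM) over S100A4 (90.19 RPKM), and OCIAML3 by S100A6 (103.2 RPKM) over S100A11 (98.35 RPKM). Differences between members within a line were not tested. Placing the 6 lines in order of mean CPM at day 4 for each member gave 45 pairs of neighbours, of which 23 differed (edgeR's quasi-likelihood test, adjusted p under 0.05). Over all genes and all 15 pairs of untreated lines, 48.8% of tests were called. These shares are of unlike pairs, since neighbours are the closest lines in each member's own order.

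**Figure D1:**
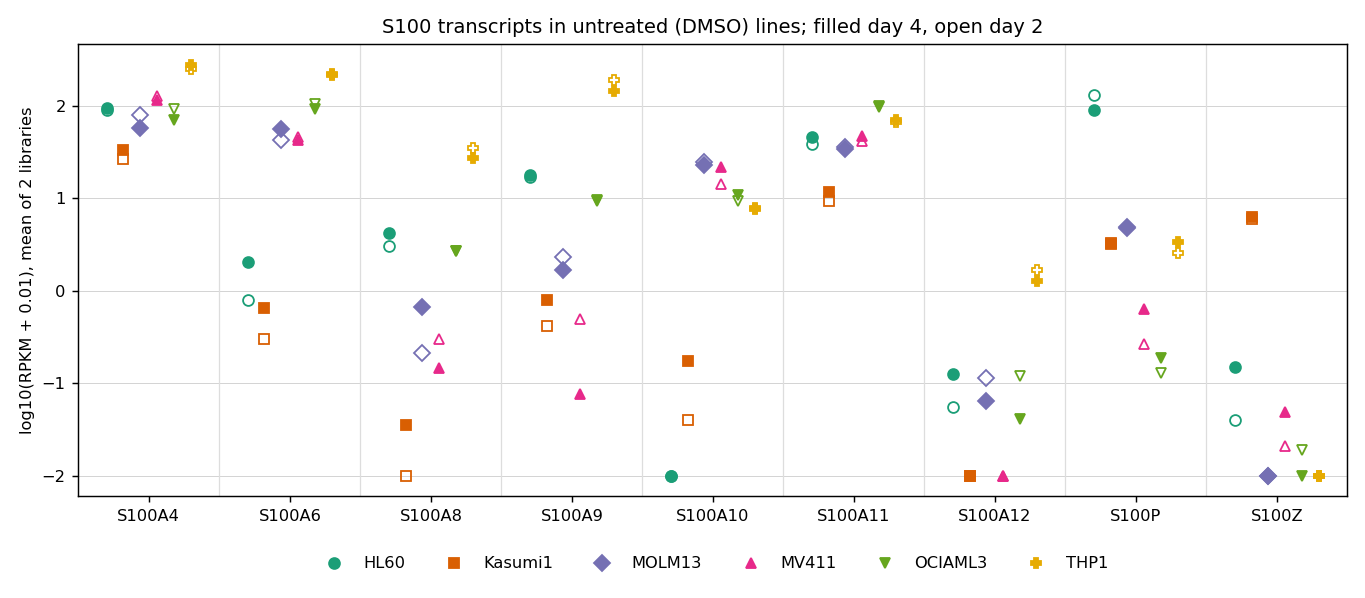
S100 transcript levels in untreated lines: log10(RPKM + 0.01) on the vertical axis for each of the 9 genes, with 1 marker shape per line, filled at day 4 and open at day 2, each the mean of 2 libraries. S100P is highest in HL60 and S100Z in Kasumi1, while S100A8, S100A9 and S100A12 are highest in THP1.

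Among untreated lines at day 4, S100A9 was at 90.7 and 75.0 CPM in THP1, 10.0 and 10.4 CPM in HL60, 4.35 and 6.33 CPM in OCIAML3 and 1.07 and 0.853 CPM in MOLM13. Kasumi1 had 0.236 and 0.656 CPM and MV411 0 and 0.0757 CPM. All neighbours in that order differed (adjusted p between 3.08e-09 and 0.0297). S100A8 followed the same order except for the last pair, with 30.9 and 23.5 CPM in THP1 and 3.80 and 4.55 CPM in HL60, and its HL60 and OCIAML3 levels did not differ beyond their spread (adjusted p = 0.105), nor did MV411 and Kasumi1 (adjusted p = 0.12). S100A12 was at 0.658 and 0.646 CPM in THP1, and at or below 0.0738 CPM in every other untreated library at day 4. THP1 exceeded HL60, the next line (adjusted p = 0.00118), and no other neighbours differed. The calgranulins thus had their highest untreated level in THP1.

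S100A10 had another order. It was highest in MOLM13 (27.1 and 42.45 CPM) and MV411 (26.85 and 39.8 CPM), which did not differ (adjusted p = 0.919), then in OCIAML3 (11.6 and 21.6 CPM) and THP1 (10.52 and 13.45 CPM), which did not differ either (adjusted p = 0.245). Kasumi1 had 0.197 and 0.303 CPM and HL60 had 0 counts in both libraries. S100P was at 132.6 and 96 CPM in HL60, above MOLM13 (7.63 and 4.87 CPM, adjusted p = 8.97e-09), while MOLM13 and THP1 (adjusted p = 0.251) and THP1 and Kasumi1 (adjusted p = 0.869) did not differ. S100Z was at 12.4 and 12.2 CPM in Kasumi1, above HL60 (0.1845 and 0.364 CPM, adjusted p = 5.91e-07), and had 0 counts in the untreated day 4 libraries of MOLM13, OCIAML3 and THP1. S100A6 split the lines into a high set, from 41.0 ± 2.34 CPM (SD, n = 2) in MV411 to 213.8 ± 9.37 CPM in THP1, and a low set of HL60 (1.96 ± 0.259 CPM) and Kasumi1 (0.615 ± 0.201 CPM). MV411 and HL60 differed by 4.355 on the log2 scale (adjusted p = 2.25e-12).

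Of the 54 combinations of member and line, 44 passed the low-count filter and were tested within lines. The 10 that did not were S100A8 in Kasumi1, S100A10 in HL60 and Kasumi1, S100A12 in Kasumi1 and MOLM13, S100P in OCIAML3 and S100Z in MOLM13, MV411, OCIAML3 and THP1. Every adjusted p within a line comes from edgeR's quasi-likelihood test with Benjamini-Hochberg adjustment over all genes tested in that line. Log2 fold changes are given with their standard error (SE), and each group held 2 libraries. The members were chosen with earlier results known, so counts of calls beside the shares of all genes are description only.

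The LSD1 inhibitor alone raised the calgranulin genes most, in THP1 and OCIAML3 above all, and lowered S100P. At day 4, 12 of the 44 tested combinations rose and 3 fell, where over all genes 2.72% of tests were called higher and 1.01% lower. The median log2 fold change over the 44 was 0.46, beside medians of all genes between -0.03 and 0.00 in the 6 lines. S100A8, one chain of calprotectin, went in THP1 from 30.9 and 23.5 CPM with DMSO to 944.5 and 893.6 CPM with 552A, a 33.4-fold rise (log2 5.06 ± 0.22, adjusted p = 2.43e-07). In OCIAML3 it went from 1.90 and 3.42 to 72.1 and 55.6 CPM, a 24.2-fold rise (adjusted p = 0.00064). The treated libraries of both lines lay far above their controls.

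S100A9, the other chain, rose with 552A at day 4 in THP1 from 90.7 and 75.0 to 2812 and 2477 CPM (31.6-fold, adjusted p = 2.12e-05). In OCIAML3 it rose from 4.35 and 6.33 to 191.5 and 173.5 CPM (34.4-fold, adjusted p = 0.00159). MV411 had a rise at a far lower level, from 0 and 0.0757 to 0.953 and 1.23 CPM (adjusted p = 0.00628). With 2 counts over its untreated group, the ratio was 28.2, with an exact 95% counting interval from 7.38 to 240. S100A9 thus rose in 3 lines whose untreated levels differ widely. S100A12 rose in THP1 from 0.658 and 0.646 to 119.7 and 127.5 CPM (186-fold, adjusted p = 1.26e-07). In OCIAML3 it rose from 0.0327 and 0 to 2.835 and 2.68 CPM (adjusted p = 0.000287), a ratio of 158 over 1 untreated count (exact 95% interval 28.0 to 6300). In MV411 it rose from 0 counts to 0.635 and 0.7615 CPM, which is at least 11.9-fold against 3 counts over the untreated group (adjusted p = 0.0128). The MV411 call for S100A12 was lost without 552A replicate 2 (adjusted p = 0.07) or DMSO replicate 2 (adjusted p = 0.068).

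In HL60 and MOLM13 the calgranulins had smaller differences with 552A. S100A8 was called at day 2 in HL60, from 2.95 and 3.22 to 15.2 and 25.1 CPM (6.50-fold, adjusted p = 0.0089), and in MOLM13, from 0.095 and 0.308 to 3.11 and 4.19 CPM (18.05-fold, adjusted p = 0.00256). At day 4 neither was called, with log2 fold changes of 1.34 ± 0.43 in HL60 (adjusted p = 0.303) and 1.99 ± 0.51 in MOLM13 (adjusted p = 0.0877). The HL60 call at day 2 was lost without 552A replicate 2 (adjusted p = 0.0752), DMSO replicate 1 (0.159) or DMSO replicate 2 (0.0983), and the MOLM13 call without DMSO replicate 1 (0.0634). In Kasumi1 no library under any treatment exceeded 0.251 CPM for S100A8, 0.682 CPM for S100A9 or 0.07175 CPM for S100A12.

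S100P fell with 552A at day 4 in Kasumi1, from 4.33 and 3.735 to 0.765 and 0.948 CPM (4.82-fold lower, adjusted p = 0.00283). In MOLM13 it fell from 7.63 and 4.87 to 0.874 and 0.4185 CPM (10.4-fold lower, adjusted p = 0.00254). In THP1 it fell from 4.96 and 3.70 to 1.49 and 0.992 CPM (3.52-fold lower, adjusted p = 0.0104), a call lost without 552A replicate 2 (0.112) or DMSO replicate 1 (0.0853). HL60, the line with by far the most S100P, had overlapping libraries (132.6 and 96 CPM with DMSO, 103.5 and 81.0 CPM with 552A, adjusted p = 0.951). Of the 4 lines in which S100A10 was tested, it was called in THP1, where it rose from 10.52 and 13.45 to 53.4 and 59.7 CPM (4.67-fold, adjusted p = 0.000226), but the test of a difference between lines missed the threshold for it (adjusted p = 0.0513). THP1 also had higher S100A4 (log2 1.15 ± 0.27, adjusted p = 0.0215) and S100A6 (0.82 ± 0.20, adjusted p = 0.0275). Without 1 of the 4 day 4 libraries with DMSO or 552A, S100A4 was not called (adjusted p between 0.0689 and 0.198), and S100A6 was not called without any of 11 of the 16 THP1 libraries (up to 0.21). S100Z rose in Kasumi1, from 12.4 and 12.2 to 20.6 and 20.5 CPM (log2 0.70 ± 0.15, adjusted p = 0.0186), a call lost without any of the same 4 libraries of that line (0.109 to 0.179) and with no filter on low counts (0.16).

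**Figure D2:**
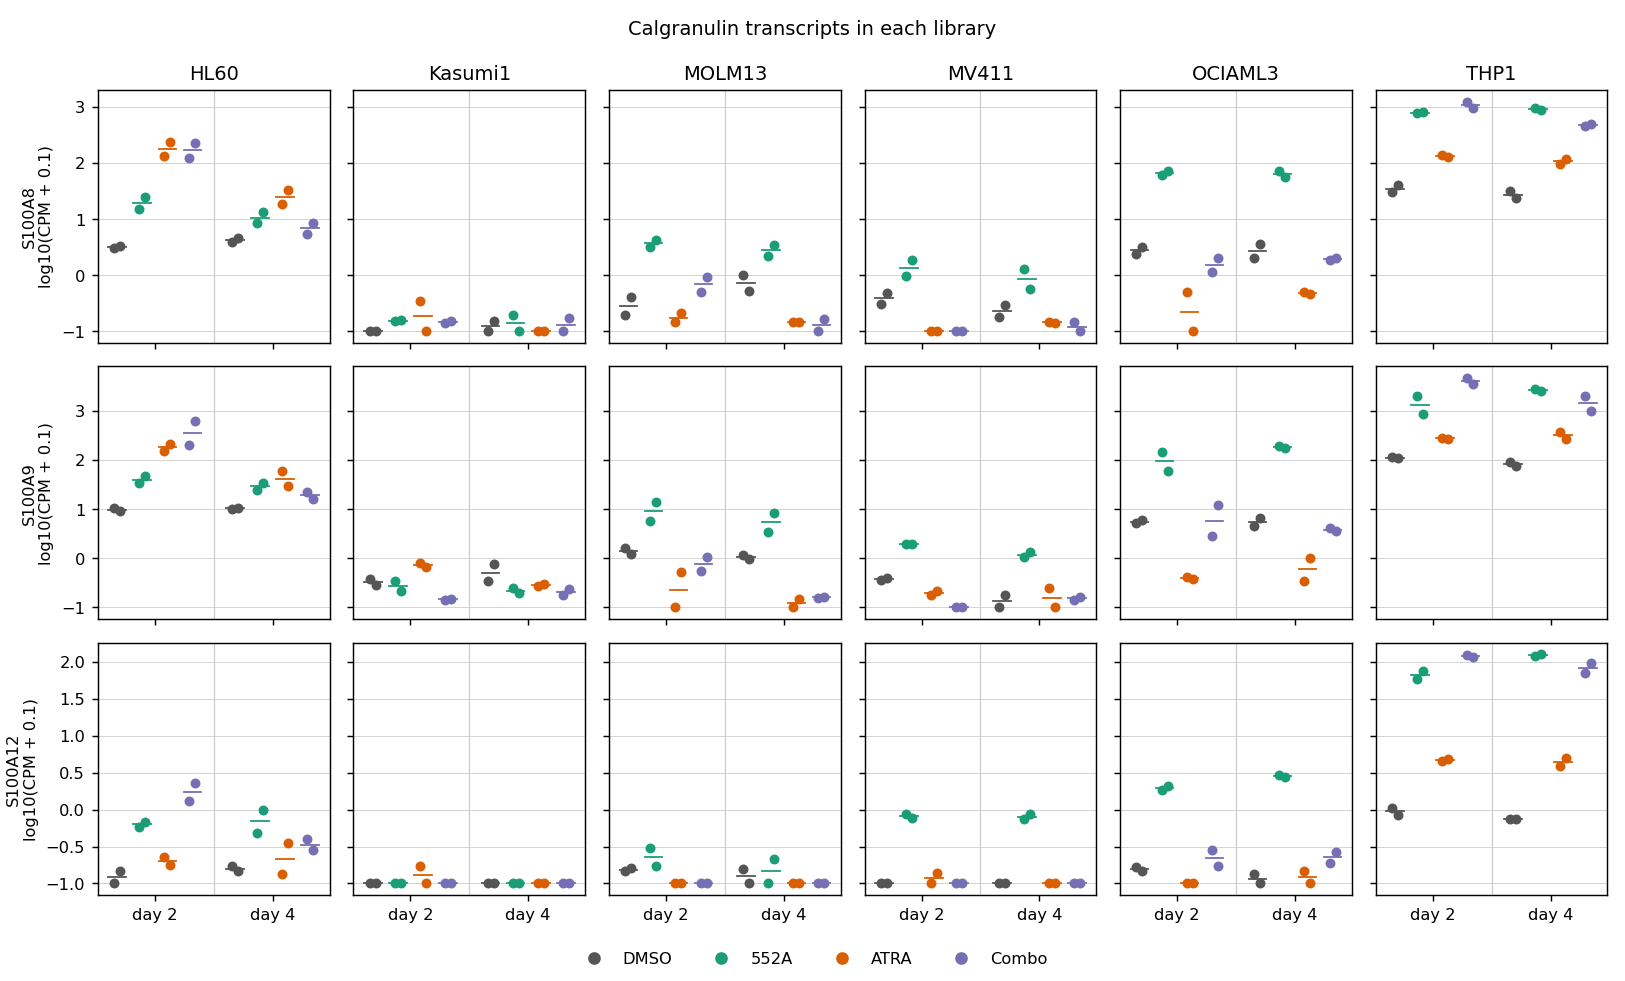
Calgranulin transcripts in each library: log10(CPM + 0.1) of S100A8, S100A9 and S100A12 (rows) in the 6 lines (columns), by treatment and day; points are libraries and bars the mean of 2 on this scale. THP1 and OCIAML3 rise with 552A, HL60 is highest with ATRA or Combo at day 2, and in MOLM13, MV411 and OCIAML3 Combo lies below 552A alone.

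At day 2, 12 of the 44 combinations were already higher with 552A and 1 was lower, where 2.28% and 0.54% of all tests were called. S100A9 in THP1 stood at 2044 and 869 CPM at that time against 112.1 and 107.9 CPM with DMSO (13.35-fold, adjusted p = 0.00013), and the lower of the treated libraries was the one with the GC trend. S100A12 rose 78.8-fold in THP1 and 30.9-fold in OCIAML3 (adjusted p = 3.2e-07 and 0.00106). Monocyte markers moved beside the calgranulins in some lines and not in others. Their sum over CD14, FCN1, VCAN, CSF1R and CD163 ranged from 2.58 to 282.5 CPM over DMSO libraries, from 2.65 to 3786 CPM with 552A, from 4.13 to 685.8 CPM with ATRA and from 5.08 to 3505 CPM with Combo. In THP1 at day 4 it was at 255.5 and 264.8 CPM with DMSO and 3526 and 3786 CPM with 552A. In OCIAML3 at day 4 it was at 33.1 and 96.0 CPM with DMSO, 2041 and 3435 CPM with 552A and still 1466 and 2047 CPM with Combo, where S100A8 was at 1.775 and 1.91 CPM against 1.90 and 3.42 CPM with DMSO. In Kasumi1 at day 4 it was at 10.8 and 11.9 CPM with DMSO and 31.5 and 41.1 CPM with 552A, where no calgranulin exceeded 0.1435 CPM with 552A. Of these 5 markers, CD163 rose across lines with 552A at day 4 (log2 6.55 ± 0.74, adjusted p = 0.000245), and CD163 and VCAN rose with Combo (0.375% and 25.3% of all genes called). CD14, FCN1 and CSF1R were not called with 552A or Combo, and with ATRA none of the 5 was called (7.86% of all genes called). VCAN reached 3284 CPM and FCN1 at most 3.32 CPM, so the genes weigh unequally in the sum. Of 6 neutrophil markers, LTF, MMP8, FCGR3B and CEACAM8 stayed at or below 0.217, 0.478, 0.648 and 0.857 CPM in every library, while CXCR2 rose with ATRA (log2 1.30 ± 0.30, adjusted p = 0.0167) and with Combo (1.28 ± 0.30, adjusted p = 0.00527). CSF3R (2.95 to 599.3 CPM) was not called with ATRA (log2 fold change 0.23 ± 0.47, adjusted p = 0.8025) or with Combo (-0.70 ± 0.47, adjusted p = 0.2765). The neutrophil markers, CSF3R included, summed to between 24.35 and 606.3 CPM over all libraries. The part of these marker changes in the S100 results was not tested.

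ATRA alone moved the S100 genes in opposite directions in different lines. At day 4, 9 of the 44 combinations rose and 11 fell, where 8.77% and 6.99% of all tests were called higher and lower, and the median log2 fold change was -0.19 beside medians of all genes between -0.06 and 0.07. S100A8 rose in HL60 from 3.80 and 4.55 to 18.8 and 32.5 CPM (6.23-fold, adjusted p = 0.000761) and in THP1 from 30.9 and 23.5 to 96.7 and 118.5 CPM (3.82-fold, adjusted p = 3.56e-05). It fell in OCIAML3 from 1.90 and 3.42 to 0.398 and 0.361 CPM (6.99-fold lower, adjusted p = 0.00752) and in MOLM13 from 0.905 and 0.426 to 0.0437 and 0.0483 CPM (adjusted p = 0.0156), with 2 counts over the treated group and a ratio of 14.7 (exact 95% interval 3.63 to 129). In each of these 4 lines the treated and control libraries were apart. The falls rest on few counts: in MOLM13 the S100A8 call was lost without ATRA replicate 1 (0.136), ATRA replicate 2 (0.0878) or DMSO replicate 1 (0.1635), and in OCIAML3 without ATRA replicate 1 (0.0604), ATRA replicate 2 (0.0795) or DMSO replicate 2 (0.059).

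S100A9 had the same directions with ATRA at day 4. It rose in HL60 from 10.0 and 10.4 to 58.7 and 29 CPM (4.40-fold, adjusted p = 0.0064) and in THP1 to 365.7 and 271.8 CPM (3.735-fold, adjusted p = 0.00406). It fell in OCIAML3 to 0.2485 and 0.9015 CPM (9.19-fold lower, adjusted p = 0.0111) and in MOLM13 from 1.07 and 0.853 to 0 and 0.0483 CPM (adjusted p = 0.0323), with 1 count over the treated group and a ratio of 42.2 (exact 95% interval 7.06 to 1720). The HL60 call was lost without DMSO replicate 1 (0.0582), the OCIAML3 call without ATRA replicate 1 (0.105) or DMSO replicate 2 (0.0613), and the MOLM13 call without any of its 4 libraries (0.0948 to 0.228). S100A12 rose in THP1 from 0.658 and 0.646 to 3.74 and 4.97 CPM (6.42-fold, adjusted p = 3.01e-05), and the same untreated libraries served the 186-fold rise with 552A.

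S100A10, the annexin A2 partner, fell with ATRA in 3 of the 4 lines in which it was tested. At day 4 it went in MV411 from 26.85 and 39.8 to 6.35 and 5.75 CPM (5.52-fold lower, adjusted p = 1.57e-05). In OCIAML3 it went from 11.6 and 21.6 to 1.69 and 1.13 CPM (11.9-fold lower, adjusted p = 0.00419), and in THP1 from 10.52 and 13.45 to 4.55 and 5.33 CPM (log2 fold change -1.32 ± 0.26, adjusted p = 0.00442). MOLM13 had 10.53 and 19.6 CPM against 27.1 and 42.45 CPM (log2 fold change -1.22 ± 0.38), which was not called (adjusted p = 0.0654). No treated library of these lines reached its controls. The OCIAML3 call was lost without ATRA replicate 2 (0.0575), and the THP1 call without ATRA replicate 1 (0.0614) or DMSO replicate 2 (0.0642) and after GC correction (log2 fold change -0.998, adjusted p = 0.117).

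Other members were called with ATRA at day 4 in 1 to 3 lines. S100A4, the myosin partner, rose in HL60 from 103.9 and 90.4 to 345.6 and 217.5 CPM (2.96-fold, adjusted p = 0.000707) and fell in OCIAML3 from 82.8 and 61.7 to 19.9 and 22.4 CPM (3.45-fold lower, adjusted p = 0.00598). The OCIAML3 call was lost without ATRA replicate 1 (0.0608) or DMSO replicate 1 (0.0515). S100A4 was called lower in THP1 (log2 fold change -0.87 ± 0.27, adjusted p = 0.0497), but not without any of 13 of the 16 libraries (up to 0.32) nor with RLE normalisation (0.0514). S100P fell in HL60 from 132.6 and 96 to 43.3 and 35.2 CPM (2.85-fold lower, adjusted p = 0.00316). S100P also fell in MV411, where it was at or below 1.06 CPM throughout, and that call was lost without ATRA replicate 1 (0.122), ATRA replicate 2 (0.154) or DMSO replicate 1 (0.0942). S100A11 rose in HL60 (2.21-fold, adjusted p = 0.00894), with the call lost without ATRA replicate 1 (0.0603), DMSO replicate 1 (0.0707) or DMSO replicate 2 (0.0607). S100Z rose in HL60 from 0.1845 and 0.364 to 1.045 and 1.445 CPM (adjusted p = 0.0139), lost without ATRA replicate 2 (0.063) or DMSO replicate 1 (0.141).

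**Figure D3:**
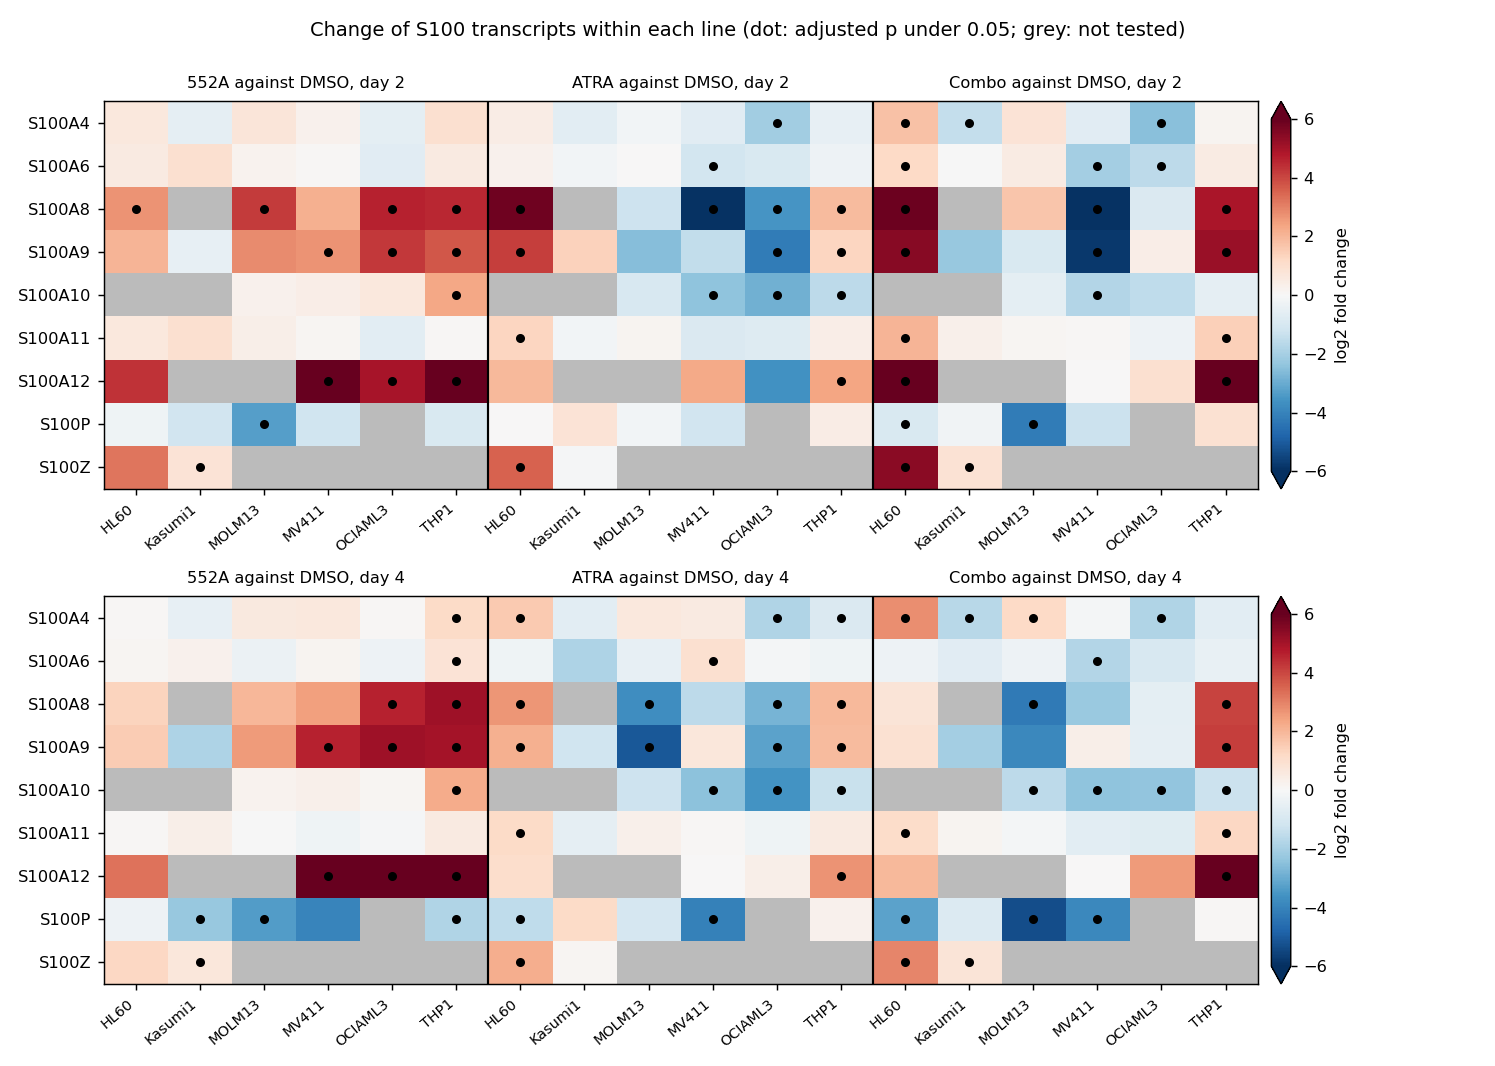
Log2 fold change of each S100 gene against DMSO within each line at day 2 (top) and day 4 (bottom), coloured from -6 (blue) to 6 (red); dots mark adjusted p under 0.05 and grey marks combinations not tested. At day 4 the 552A columns are red for S100A8 and S100A9 where tested in all lines but Kasumi1, whereas the ATRA columns for these genes are red in HL60 and THP1 and blue in MOLM13 and OCIAML3.

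S100A6 in MV411 was called lower with ATRA at day 2 and higher at day 4. It fell from 45.4 and 42.7 to 21.1 and 20.4 CPM at day 2 (2.14-fold lower, adjusted p = 0.0037) and rose from 42.6 and 39.3 to 76.4 and 83.5 CPM at day 4 (1.945-fold, adjusted p = 0.00295). The difference between the days was called (log2 2.06 ± 0.28, adjusted p = 0.00486). After GC correction neither single day was called, with log2 fold changes of -0.83 (adjusted p = 0.05025) and 0.26 (adjusted p = 0.451). The day 2 call was also lost without ATRA replicate 2 (0.0514).

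At day 2, 7 combinations rose and 8 fell with ATRA, where 6.34% and 4.96% of all tests were called. Among the ATRA libraries of HL60, S100A8 and S100A9 were highest then, with S100A8 at 131 and 236.4 CPM against 2.95 and 3.22 CPM (57.4-fold, adjusted p = 7.62e-06) and S100A9 at 152.9 and 209.6 CPM against 10.52 and 8.89 CPM (18.01-fold, adjusted p = 0.000134). In OCIAML3 S100A8 was already low, at 0.393 and 0 CPM against 2.24 and 3.13 CPM (adjusted p = 0.004275). In MV411 S100A8 went from 0.203 and 0.388 CPM to 0 counts, at least 5.04-fold lower against 3 counts over the group. That call (adjusted p = 0.0383) was lost without any of 6 libraries (0.0597 to 0.194).

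The combination of both agents gave the calgranulins of THP1 and HL60 high levels at day 2, and in 3 other lines it left them far below 552A alone. Against DMSO, 12 combinations rose and 9 fell at day 2, where 10.7% and 8.07% of all tests were called. At day 4, 9 rose and 11 fell, where 12.2% and 9.85% were called, with a median log2 fold change of -0.49 beside medians of all genes between -0.02 and 0.02. In THP1 at day 2, S100A9 reached 4661 and 3485 CPM against 112.1 and 107.9 CPM (35.8-fold, adjusted p = 3.3e-06), the highest S100A9 level of any library. S100A12 rose there 133-fold (adjusted p = 2.12e-08) and S100A8 30.2-fold (adjusted p = 5.06e-08). At day 4 these THP1 rises were 17.4-fold for S100A9, 123-fold for S100A12 and 16.9-fold for S100A8, with S100A8 at 455.9 and 490.3 CPM.

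HL60 had a calgranulin response to Combo that was present at day 2 and not called at day 4. S100A8 was at 124.1 and 231 CPM at day 2 against 2.95 and 3.22 CPM with DMSO (58.3-fold, adjusted p = 3.71e-06). At day 4 it was at 5.42 and 8.57 CPM against 3.80 and 4.55 CPM (log2 0.75 ± 0.43, adjusted p = 0.215). S100A9 went from 198.6 and 634.2 CPM at day 2 to 22.4 and 15.9 CPM at day 4. The change of the effect between the days was -5.11 ± 0.63 on the log2 scale for S100A8 (adjusted p = 0.00166) and -4.52 ± 0.705 for S100A9 (adjusted p = 0.00553). The summed neutrophil markers of HL60 were at 48.7 and 58.2 CPM with DMSO, 211.4 and 213.7 CPM with ATRA and 263 and 464.9 CPM with Combo at day 2. At day 4 they were at 55.9 and 51.4 CPM with DMSO, 251.2 and 163 CPM with ATRA and 67.2 and 61.6 CPM with Combo. The T-cell markers of HL60 summed at day 4 to 0.1845 and 0.1365 CPM with DMSO and 6.93 and 6.68 CPM with ATRA. The part of these markers in the HL60 results was not tested. With ATRA alone the S100A8 difference between the days was -3.20 ± 0.61 (adjusted p = 0.0365). Of the 44 combinations, 1 rose and 1 fell in the difference between days with ATRA (0.203% and 0.162% of all tests), and 3 fell with Combo (0.424% of all tests), the third being S100P in HL60 (-2.32 ± 0.44, adjusted p = 0.0136).

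With ATRA added to 552A, the calgranulins of MOLM13, MV411 and OCIAML3 were far lower than with 552A alone. Combo against 552A alone at day 4 was higher in 4 combinations and lower in 19, where 7.81% and 6.99% of all tests were called. S100A9 was at 3.28 and 8.29 CPM with 552A and 0.0558 and 0.0651 CPM with Combo in MOLM13 (adjusted p = 0.00147), a ratio of 104 over 2 counts (exact 95% interval 28.4 to 861). In OCIAML3 it was at 191.5 and 173.5 against 3.99 and 3.485 CPM (50.5-fold lower, adjusted p = 0.000491), and in MV411 at 0.953 and 1.23 against 0.0436 and 0.0628 CPM (adjusted p = 0.00437), a ratio of 21.5 over 2 counts (exact 95% interval 5.63 to 183). With DMSO the OCIAML3 libraries had 4.35 and 6.33 CPM, and Combo was not called against them (log2 fold change -0.55 ± 0.60, adjusted p = 0.559). S100A8 was 35.8-fold lower in OCIAML3 (adjusted p = 0.0001915). In MOLM13 it was also lower (adjusted p = 0.000267), a ratio of 95.5 over 1 count (exact 95% interval 16.8 to 3800). S100A12 was 21.2-fold lower in OCIAML3 (adjusted p = 0.000479) and in MV411 went from 0.635 and 0.7615 CPM to 0 counts, at least 9.05-fold lower (adjusted p = 0.00727). In MV411 the S100A8 call (adjusted p = 0.00975) was lost without 552A replicate 1 (0.0506) or Combo replicate 2 (0.0592), the latter being a library with a GC trend.

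The calgranulins of THP1 had much smaller differences. S100A8 was 1.98-fold lower with Combo than with 552A at day 4 (adjusted p = 0.00217), and S100A12 1.51-fold lower (adjusted p = 0.0468), a call lost without any of 13 libraries (up to 0.295), with RLE normalisation (0.0767), with no filter (0.0773) and with DESeq2 (0.0942). Against ATRA alone, Combo at day 4 was higher in 5 combinations and lower in 5 (4.83% and 3.58% of all tests). THP1 supplied S100A8 (4.41-fold higher, adjusted p = 2.02e-05), S100A9 (4.67-fold, adjusted p = 0.00147) and S100A12 (19.2-fold, adjusted p = 1.64e-06). S100P was lower with Combo than with ATRA in MOLM13 (19.6-fold, adjusted p = 0.00127) and in Kasumi1 (3.98-fold, adjusted p = 0.00359).

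Combo fell short of the sum of the single effects on the log2 scale in 6 of the 44 combinations, where 0.674% of all tests were called lower. The shortfalls were S100A12 (-3.28 ± 0.33, adjusted p = 0.000513), S100A8 (-2.92 ± 0.27, adjusted p = 0.000381), S100A9 (-2.76 ± 0.51, adjusted p = 0.0131) and S100A10 (-2.20 ± 0.36, adjusted p = 0.00671) in THP1, S100A8 in HL60 (-3.23 ± 0.60, adjusted p = 0.0414) and S100A6 in MV411 (-2.87 ± 0.28, adjusted p = 0.000491). The HL60 call was lost without any of 10 libraries (up to 0.263). The THP1 call of S100A9 was lost without 552A replicate 1 (0.0545), ATRA replicate 1 (0.0519), DMSO replicate 1 (0.0556) or DMSO replicate 2 (0.0822), and that of S100A10 without DMSO replicate 1 (0.0512), all at day 4.

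S100A10 fell with Combo in each of the 4 lines in which it was tested. At day 4 it was 5.26-fold lower than with DMSO in MV411 (6.145 and 6.715 CPM, adjusted p = 1.74e-05) and 2.46-fold lower in THP1 (4.67 and 5.39 CPM, adjusted p = 0.00202). It was also 5.10-fold lower in OCIAML3 (2.44 and 4.29 CPM, adjusted p = 0.0251) and 2.92-fold lower in MOLM13 (13.05 and 10.9 CPM, adjusted p = 0.0156). In THP1, where 552A alone had raised S100A10 to 53.4 and 59.7 CPM, the level with Combo lay beside 4.55 and 5.33 CPM with ATRA alone and was 11.48-fold under 552A (adjusted p = 2.97e-06). The MOLM13 call was lost without Combo replicate 1 (0.0741), Combo replicate 2 (0.137) or DMSO replicate 2 (0.16). The OCIAML3 call was lost without Combo replicate 1 (0.157), Combo replicate 2 (0.0801) or DMSO replicate 2 (0.149). After GC correction OCIAML3 (0.0623) and THP1 (0.0819) were not called.

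**Figure D4:**
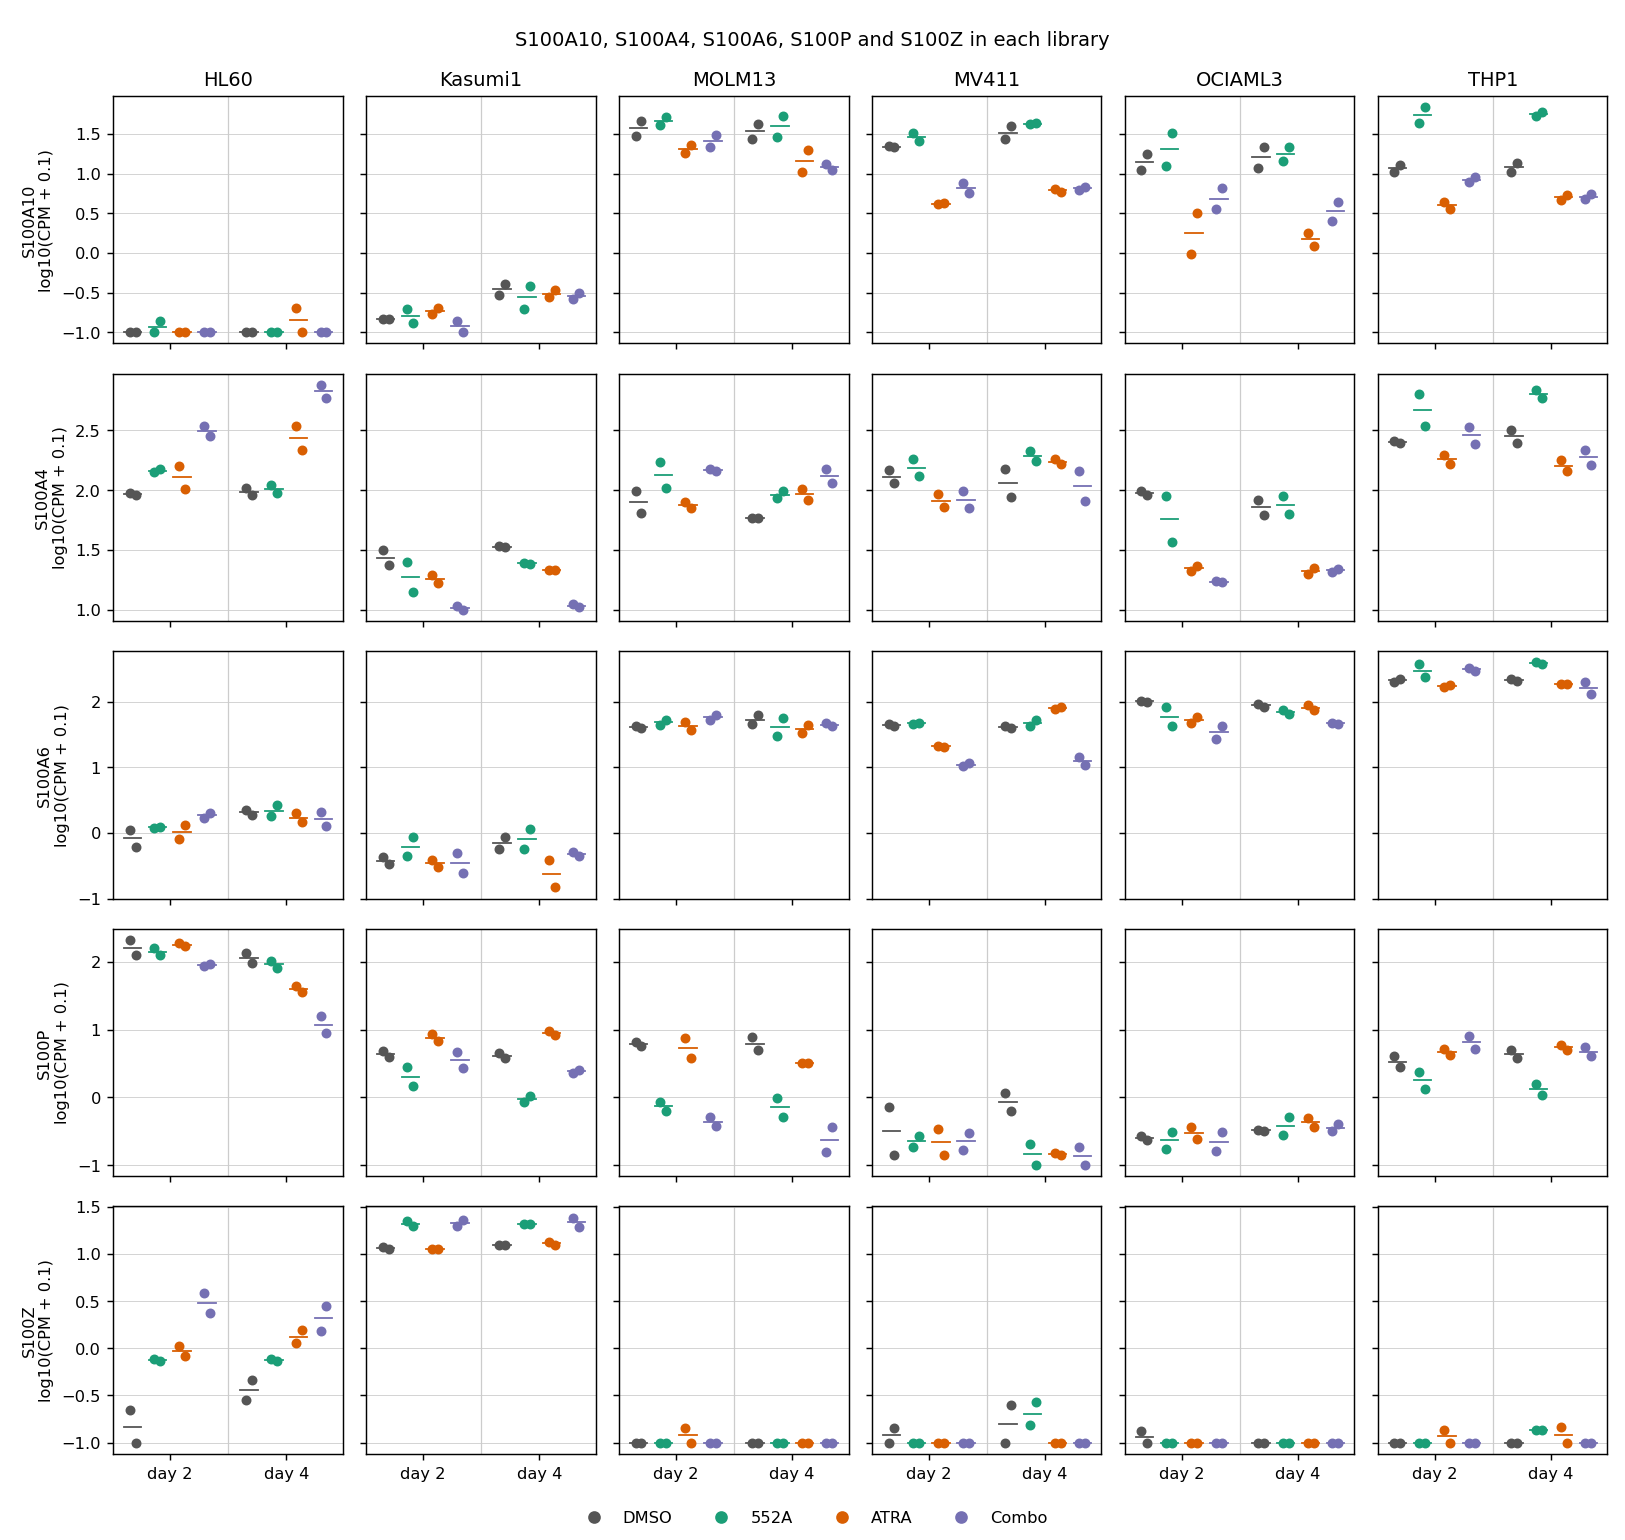
S100A10, S100A4, S100A6, S100P and S100Z in each library: log10(CPM + 0.1) by line (columns), treatment and day; points are libraries and bars the mean of 2 on this scale. S100A10 is lowest with ATRA or Combo in MV411, OCIAML3 and THP1, S100A4 climbs in HL60 and drops in OCIAML3 with both, and S100P in MOLM13 is lowest with 552A or Combo.

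S100A4 went up with Combo at day 4 in HL60, from 103.9 and 90.4 to 755.7 and 588.9 CPM (6.99-fold, adjusted p = 1.16e-05). It went down in Kasumi1, from 33.8 and 33.5 to 11.04 and 10.45 CPM (3.195-fold lower, adjusted p = 0.000651), and in OCIAML3, from 82.8 and 61.7 to 20.55 and 22.0 CPM (3.50-fold lower, adjusted p = 0.00558). MOLM13 had a rise (2.26-fold, adjusted p = 0.00936). The MOLM13 call was lost without Combo replicate 1 (0.11), DMSO replicate 1 (0.08225) or DMSO replicate 2 (0.0756), and the OCIAML3 call without Combo replicate 1 (0.0522) or Combo replicate 2 (0.0506). S100A6 fell in MV411 with Combo, to 14.2 and 10.54 CPM from 42.6 and 39.3 CPM (3.36-fold lower, adjusted p = 4.14e-05), while ATRA alone gave 76.4 and 83.5 CPM, the rise that was not called after GC correction. S100A11, the annexin A1 partner, rose with Combo in THP1, from 39.6 and 55.9 to 105.8 and 127.1 CPM (2.37-fold, adjusted p = 0.00388), and in HL60 (2.18-fold, adjusted p = 0.00968), where the call was lost without DMSO replicate 1 (0.0718) or DMSO replicate 2 (0.0605).

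S100P, the transcript that marked untreated HL60, was at 15.55 and 8.705 CPM with Combo at day 4 there against 132.6 and 96 CPM with DMSO (9.29-fold lower, adjusted p = 2.09e-05). In MOLM13 it was at 0.0558 and 0.261 CPM (39.8-fold lower than DMSO, adjusted p = 6.07e-05). S100Z, the transcript that marked Kasumi1, was at 24.1 and 19.0 CPM there with Combo (1.71-fold higher than DMSO, adjusted p = 0.007), a call lost without DMSO replicate 1 (0.08) or DMSO replicate 2 (0.0851) and with no filter on low counts (0.0724). In HL60 S100Z rose with Combo at day 2 from 0.1195 and 0 to 3.725 and 2.255 CPM (adjusted p = 8.37e-05), a ratio of 46.7 over 3 counts (exact 95% interval 15.7 to 229). It was also higher at day 4 (7.58-fold, adjusted p = 0.00241).

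Whether a treatment acted differently in different lines was tested with an interaction F test at day 4 (48 libraries). The effect of 552A differed between lines for 4 of the 9 members (5.87% of all genes), that of ATRA for 7 of 9 (31.6%) and that of Combo for 8 of 9 (33.8%). S100A8, S100A9, S100P and S100A4 differed for all 3 treatments. The effect of Combo on S100A10 was not shown to differ between lines (adjusted p = 0.23), nor was that of 552A on S100A12 (adjusted p = 0.173).

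Changes common to the lines were tested on sums of the replicates with the 6 lines as the replicates. With 552A at day 4, S100A12 was called of the 9 members (log2 6.84 ± 1.11, adjusted p = 0.00988), where 0.375% of all genes were called. At day 2 it was again S100A12 (log2 5.93 ± 1.21, adjusted p = 0.0155), with 2.58% of all genes called. The calprotectin genes missed the threshold at day 4, with 3.56 ± 0.98 for S100A8 (adjusted p = 0.161) and 3.54 ± 1.08 for S100A9 (adjusted p = 0.236), although DESeq2 called S100A9 (adjusted p = 0.0434). The S100A12 call at day 4 was lost without OCIAML3 (0.0917), and without THP1 the gene did not pass the low-count filter at either day, so both calls rest on that line.

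With ATRA, S100A10 was the called member across lines, at day 2 (log2 fold change -1.81 ± 0.41, adjusted p = 0.0173, 10.9% of all genes called) and at day 4 (-1.70 ± 0.52, adjusted p = 0.049, 7.86% called). The day 4 call was lost without MOLM13 (0.123), MV411 (0.152), OCIAML3 (0.214) or THP1 (0.111), after GC correction (0.0556) and without the 5 libraries with a GC trend (0.0508). The day 2 call was lost without MV411 (0.0631), OCIAML3 (0.121) or THP1 (0.0586). With Combo, S100A10 fell (-1.75 ± 0.49, adjusted p = 0.016) and S100A12 rose (4.66 ± 1.17, adjusted p = 0.0103) at day 4, where 25.3% of all genes were called. At day 2, S100A10 (-1.10 ± 0.39, adjusted p = 0.0385), S100A12 (5.11 ± 1.24, adjusted p = 0.00638) and S100Z (2.04 ± 0.69, adjusted p = 0.0342) were called, with 29.4% of all genes. At both days S100A12 did not pass the low-count filter without THP1, so its calls rest on that line. S100Z did not pass it without HL60 or without Kasumi1, and its call was lost without MOLM13 (0.0573) and with DESeq2 (0.552). S100A10 was lost at day 2 without HL60 (0.05485), MV411 (0.173) or OCIAML3 (0.14) and after GC correction (0.0874), and S100A12 with DESeq2 (0.0858). At day 4 S100A10 was not called without MOLM13 (0.0539), MV411 (0.0735) or OCIAML3 (0.05955), and DESeq2 did not call S100A12 (0.111). Under Combo against 552A at day 4, S100A10 was lower (-2.38 ± 0.50, adjusted p = 0.0116, 8.32% of all genes called), a call lost without MV411 (0.0522) or THP1 (0.0652). There the calgranulins missed the threshold with edgeR, at -2.84 ± 0.94 for S100A8 (adjusted p = 0.0658), -2.99 ± 1.055 for S100A9 (0.0813) and -2.185 ± 0.73 for S100A12 (0.0733). DESeq2 called S100A8 (adjusted p = 0.00928) and S100A9 (0.00514). Combo against ATRA called 0 of 9 (0.291% of all genes) and Combo beyond the sum called 0 of 9 (0%). With edgeR these had 1 and 2 members at an unadjusted p under 0.05, and DESeq2 also called 0.

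As a description over the 48 group means, after subtracting each line's mean log2 CPM, S100A8 and S100A9 had a Pearson correlation of 0.92, S100A9 and S100A12 of 0.81, and S100A8 and S100A12 of 0.78. S100A8 and S100A10 reached 0.59 and S100A4 and S100P reached -0.47, while S100P and S100A8 were at -0.06. These points share lines and libraries, so no p is given. Among 10594 protein-coding genes whose mean log2 CPM reached 1, S100A9 was the gene most like S100A8, followed by FRAT1 (0.74) and RELL1 (0.73). S100A8 and S100A12 did not reach that mean level and were not candidates in these lists. Of the 10594 genes, those most like S100A9 were FRAT1 (0.71), ICAM3 (0.69) and KIAA1614 (0.66). All 3 were below its correlations with S100A8 (0.92) and S100A12 (0.81). Those most like S100A12 were S100A9, SMIM4 (0.74) and ZNF589 (0.74), the last 2 below its correlation with S100A8 (0.78). S100A10 was most like OSBPL3 (0.78), STOM (0.78) and FOSL2 (0.75), and S100P was most like RTN3 (0.69), PLAGL2 (0.68) and SLC22A15 (0.68).

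The genes known to act with S100 proteins changed in a few cases, and their calls were not refitted with a line left out or by the alternatives. Across lines at day 4, 0.375% of all genes were called with 552A, 7.86% with ATRA and 25.3% with Combo. Of 10 receptor genes, 1 rose with 552A, 2 rose with ATRA, and 3 rose and 1 fell with Combo. LY96, the co-receptor of TLR4 through which calprotectin can signal, rose with 552A (log2 5.15 ± 0.90, adjusted p = 0.0112) and with Combo (5.70 ± 0.92, adjusted p = 0.000615). The adhesion proteins NPTN and ALCAM rose with ATRA (0.49 ± 0.14 and 1.14 ± 0.30, adjusted p = 0.0371 and 0.0262) and with Combo (0.56 ± 0.14 and 0.97 ± 0.29, adjusted p = 0.00759 and 0.0228). BSG fell with Combo (-0.47 ± 0.15, adjusted p = 0.0328). TLR4 (-0.50 ± 0.40 with 552A) and AGER, the receptor for advanced glycation end products (-0.02 ± 0.28), were not called.

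Of 10 intracellular partner genes, 1 was called with 552A, 1 with ATRA and 2 with Combo, the last a smaller share than that of all genes. ANXA2, whose protein binds S100A10, rose with 552A (1.99 ± 0.37, adjusted p = 0.0164), and with ATRA it had -0.09 ± 0.38 (adjusted p = 0.91). AHNAK, a scaffold of the annexin A2 and S100A10 complex, fell with ATRA (-2.19 ± 0.44, adjusted p = 0.00831) and with Combo (-1.91 ± 0.45, adjusted p = 0.0057). IQGAP1 rose with Combo (0.71 ± 0.20, adjusted p = 0.0138). Of the 6 genes of the phagocyte oxidase, to which calprotectin delivers arachidonic acid, NCF1 rose with ATRA (3.19 ± 0.59, adjusted p = 0.0059) and with Combo (3.04 ± 0.58, adjusted p = 0.00165). NCF1 has near-identical pseudogenes, so its counts are uncertain. Of 6 myeloid transcription factors, CEBPA, CEBPB, CEBPD, CEBPE, SPI1 and KLF4, edgeR called 0 under any treatment across lines, with 0, 0 and 3 at an unadjusted p under 0.05 for 552A, ATRA and Combo. The median log2 fold change with 552A was 0.22 for the receptors and 0.10 for the partners, beside -0.01 for all genes.

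Other S100 genes were scarce. S100A13 ranged from 1.23 to 11.2 CPM and S100A1 from 0.69 to 6.02 CPM, and both were tested in 6 lines. S100B reached 19.2 CPM and was tested in 3 lines, S100A2 and S100A5 in 2 lines, and S100A3 and S100A16 in 1. S100A7, S100A14 and S100G passed the filter in 0 lines. Across lines S100A1, S100A13 and S100B were tested, and edgeR called 0 of the 3 under each treatment, with 1 at an unadjusted p under 0.05 (Combo). The protein-coding neighbours of the chromosome 1 cluster were not called. CHTOP, SNAPIN and THEM4 had log2 fold changes of -0.02 ± 0.10, -0.01 ± 0.13 and -0.06 ± 0.18 with 552A at day 4, and of -0.01 ± 0.10, 0.25 ± 0.13 and -0.27 ± 0.18 with ATRA. THEM5 did not exceed 0.436 CPM.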

How the data were processed

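RNA was extracted from TRIzol lysates of the treated cells and made into stranded total RNA libraries, per the labels' protocols. The authors deposited raw counts per gene. Trimmomatic 0.36, STAR 2.4.2a, HTSeq 0.6.0 and GRCh38 are named in the submitters' processing notes. Which annotation release was used, and whether counting used strand, is not given in the sources used here. Gene identifiers were matched to GENCODE 29 (56994 of 60552 rows), and the other rows hold 0.0417% of counts.

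The counts were tested with edgeR 4.0.16 (R 4.3.3) by the quasi-likelihood test after filterByExpr and TMM normalisation, with Benjamini-Hochberg adjustment over all genes tested and a threshold of 0.05. The fit within a line used its 16 libraries, the fit across lines used replicate sums with line as a block, and the test between lines used the 48 day 4 libraries. CPM values are TMM-scaled over all 96 libraries. A group at 0 was bounded by 3 counts over the group, and ratios over 1 to 3 counts have exact Clopper-Pearson intervals, which cover counting error only. Alternatives were DESeq2 1.42.0, RLE normalisation, no filter, GC correction, a replicate block, each library or line left out and, chosen after seeing the data, the 5 libraries with a GC trend left out. The edgeR fits were tested on simulated counts with known changes, which did not cover genes with few counts or effects that differ between lines. The members and the gene lists were chosen with earlier results of these data known. All members are named. From the lists, at most 8 called genes with the smallest p were named, and for likeness the 3 genes most like a member. TLR4, AGER and the neighbouring genes were named for their role or position. Of the marker genes, 1 erythroid, 1 B-cell and 1 monocyte gene are not reported here.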

Additional observations from a re-analysis of the deposited data

Results flagged for a closer look

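The treatment effects of several S100 genes at day 4 differed between the 6 lines, by an interaction F test in edgeR with Benjamini-Hochberg adjustment. With 552A the adjusted p was 4.84e-06 for S100A9, 4.42e-05 for S100A8, 0.000462 for S100P and 0.0312 for S100A4. With ATRA it was 6.71e-08 for S100A8, 1.21e-07 for S100A9, 1.92e-07 for S100A4, 2.91e-05 for S100P, 0.000943 for S100A10, 0.0102 for S100A6 and 0.0373 for S100A11. With Combo it was 1.23e-10 for S100A4, 4.79e-08 for S100A8, 1.07e-07 for S100A9, 2.13e-07 for S100P, 0.000837 for S100A11, 0.012 for S100A12, 0.0424 for S100Z and 0.045 for S100A6. The 3 treatments share their DMSO libraries.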

How the results depend on the processing

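Every alternative kept the direction of every S100 call it could test. Of 143 calls within lines, 85 held whichever library was left out and 58 were lost in at least 1 such fit. Of 10 calls across lines, 7 were lost without at least 1 line. The other 3, all of S100A12, held without each of the other lines but could not be refitted without THP1, on which they rest. Of all 153 calls, DESeq2 kept 149, GC correction 143, RLE normalisation 151 and no filter on low counts 146, and 118 of the 123 calls that could be recomputed held without the 5 libraries with a GC trend. The differences between days and between lines were not refitted with libraries left out. A group left with 1 library was assumed to vary like the other groups.

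Whether libraries with the same replicate number belong together is not in the labels. The differences between replicates 1 and 2 over genes were correlated between the groups of a line. The correlation was over 0.1 in 14 (MOLM13) to 21 (THP1) of 28 pairs of groups. Its median ran from 0.07 (MOLM13) to 0.43 (THP1), and its lowest value from -0.83 (MV411) to -0.39 (THP1). The replicate block kept 141 of 143 calls, and with GC correction 142. It raised the count of combinations beyond the sum at day 4 from 6 to 10, and to 12 with GC correction. No filter on low counts gave 15. GC correction with the replicate block raised the count with 552A from 13 to 25 at day 2 and from 15 to 23 at day 4, that with ATRA at day 2 from 15 to 23 and that of Combo against ATRA at day 4 from 10 to 16, while GC correction alone gave 21 with 552A at day 2. Across lines, DESeq2 called 2 members with 552A at each day in place of 1, 1 with Combo at day 2 in place of 3, and 3 for Combo against 552A at day 4 in place of 1. The 1 call with ATRA at day 4 became 0 with GC correction and 0 without the 5 libraries. The cause of these changes was not tested.

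With each library left out in turn, the counts of S100 calls within lines ranged from 11 to 16 with 552A at day 2 and 12 to 16 at day 4, 13 to 17 and 17 to 21 with ATRA, 19 to 24 and 17 to 22 with Combo, 8 to 13 for Combo against ATRA, 21 to 25 for Combo against 552A and 4 to 7 beyond the sum. With each line left out, the counts across lines ranged from 0 to 2 with 552A at day 2 and 0 to 1 at day 4, 0 to 1 with ATRA at both days, 1 to 2 with Combo at both days, 0 to 2 for Combo against 552A and 0 to 0 for Combo against ATRA and beyond the sum. Depth limits the low genes, since S100A12 and S100Z had 0 counts in 41 and 55 of 96 libraries.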
